A study of Mus musculus with 23 samples.

Results

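The liver endothelial cell markers described here are 10 genes, *Stab1*, *Stab2*, *Lyve1*, *Clec4g*, *Kdr*, *Tie1*, *Eng*, *Egfl7*, *Pecam1* and *Cdh5*, out of 37074 gene names on the array. They were chosen by name, and every probe that the array files assign to them was read. This gave 18 probes, of which 16 passed the filter on dim signal, and all 10 genes were among the 21056 with a probe that passed. Each gene was read from its brightest probe, and these 10 probes were well above background on all 23 arrays and saturated on none.

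Hepatic RNA of 23 male mice was hybridised to 1-colour Agilent arrays, 1 array per mouse. WT C57BL/6J mice were bought at 6 weeks of age, and Pxr-/- mice, which lack the nuclear receptor PXR and were backcrossed to the same strain, were bred in the facility. After 2 weeks of acclimatization, WT PCN (n = 5) and Pxr-/- PCN (n = 6) mice were given pregnenolone 16α-carbonitrile (PCN), a ligand of rodent PXR, at 100 mg/kg by daily intraperitoneal injection for 4 days. WT CONT and Pxr-/- CONT mice (n = 6 each) were given the corn oil vehicle, and tissue of all mice was taken 6 h after the final injection, at ZT6. Genotype cannot be told apart from colony, because the WT mice were purchased and the Pxr-/- mice were not.

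Liver sinusoids are lined by a specialised endothelium with open pores and no continuous basement membrane. These cells clear waste molecules from the blood through scavenger and lectin receptors, while the larger vessels of the liver carry an endothelium closer to that of other organs. Both kinds share the junction proteins and growth factor receptors of endothelium in general. In RNA of the whole liver, fewer endothelial cells and less RNA per endothelial cell cannot be told apart.

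The probes that carry the results are shown by 30 of their 60 bases, 5′ to 3′ on the transcript's strand, because *Stab2* and *Kdr* were each read at several places that did not give the same values. Each name gives the transcript the probe was designed on. Capitals mark the letters AATAAA, the most common polyadenylation signal. AATAAA or ATTAAA was searched on the probe strand and stood in 2 of the 18 probes of these genes, one of *Kdr* and one of *Egfl7*, and in 14.5% of all 32087 probes that passed the filter.
Stab2 NM_138673: taagcaccaaaggcaaggcttcatcccata
Stab2 NM_138673, dimmer probe: catttgttttaaagtatgataactcagaag
Stab2 AB105397: tgagtcaactaacaagccttaggattttgt
Stab2 ENSMUST00000160580: ggcctctgtcatatgtgacctcacatacat
Stab2 ENSMUST00000099390: tataatgcctgactctgggaacaagcaaac
Kdr NM_010612: ctactgtatcctttagaattttaacctata
Kdr EU884114: gaattggagggaAATAAAtcctctaacctg
Kdr ENSMUST00000149573: gtacaataacatgcaaaggtatatcaaagg
Lyve1 NM_053247: cactttgtgtgcctttaacaaatacattat
Clec4g NM_029465: tgtcagtctcaaaatcactgctctaaaccc

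In build mm9, the brightest *Stab2* probe lay on the minus strand at chr10:86303982-86304041, and its neighbour of the same transcript at chr10:86304198-86304257. The other *Stab2* probes lay upstream on that strand, at chr10:86346171-86346230 (AB105397), chr10:86381487-86381546 (ENSMUST00000160580) and chr10:86455257-86455316 (ENSMUST00000099390). The brightest *Kdr* probe was at chr5:76329309-76329368, the *Lyve1* probe at chr7:117994171-117994230 and the brightest *Clec4g* probe at chr8:3716182-3716241, all on the minus strand.

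Values below are quantile normalized log2 signals, and changes are log2 fold changes from limma with the washing batch of the arrays as a term. A probe was called at a Benjamini-Hochberg adjusted p of at most 0.05 and a fold change above 1.5, which is 0.58 on the log2 scale. Per array, 29510 to 33321 probes exceeded background well, out of 56605, and pairs of arrays correlated at 0.977 to 0.996. *Cyp3a11*, a known PXR target, rose by 3.55 after PCN in WT mice (limma adjusted p = 4.12e-10) and changed by 0.31 in Pxr-/- mice (limma adjusted p = 0.431). These responses differed by 3.24 (limma adjusted p = 1.23e-06). The probe of *Nr1i2*, which encodes PXR, differed by -0.03 between Pxr-/- CONT and WT CONT mice (limma adjusted p = 0.977), so Pxr-/- names mice by their labels.

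None of the 10 markers was called in WT mice after PCN, where 6.18% of all genes were called. At an unadjusted p of at most 0.05 the limma fit held 4 markers, *Lyve1*, *Pecam1*, *Tie1* and *Kdr*, against 35.9% of all genes. In Pxr-/- mice PCN gave 0 called markers beside 2.28% of all genes, and 3 at an unadjusted p of at most 0.05, *Lyve1*, *Clec4g* and *Pecam1*, beside 22.9%. The 10 changes had a median of 0.03 in WT mice and 0.19 in Pxr-/- mice, where all genes had medians of -0.02 and -0.01. Of the 10 markers, 5 had a positive change in WT mice and 9 in Pxr-/- mice.

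The intervals bound what the arrays could show. On the brightest probes, the 95% confidence interval of the change lay within 1.5-fold in both directions for 9 of the 10 markers in WT mice. The exception was *Lyve1*. In Pxr-/- mice the interval lay within 1.5-fold for 8, all except *Lyve1* and *Clec4g*. No marker separated PCN from control mice without overlap on its brightest probe in either genotype. Of all genes, 12.4% did in WT and 3.15% in Pxr-/- mice. The *Stab2* probe of ENSMUST00000099390, described below, did separate them in WT mice, and its interval, -0.65 to -0.24, passed 1.5-fold.

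**Figure D1:**
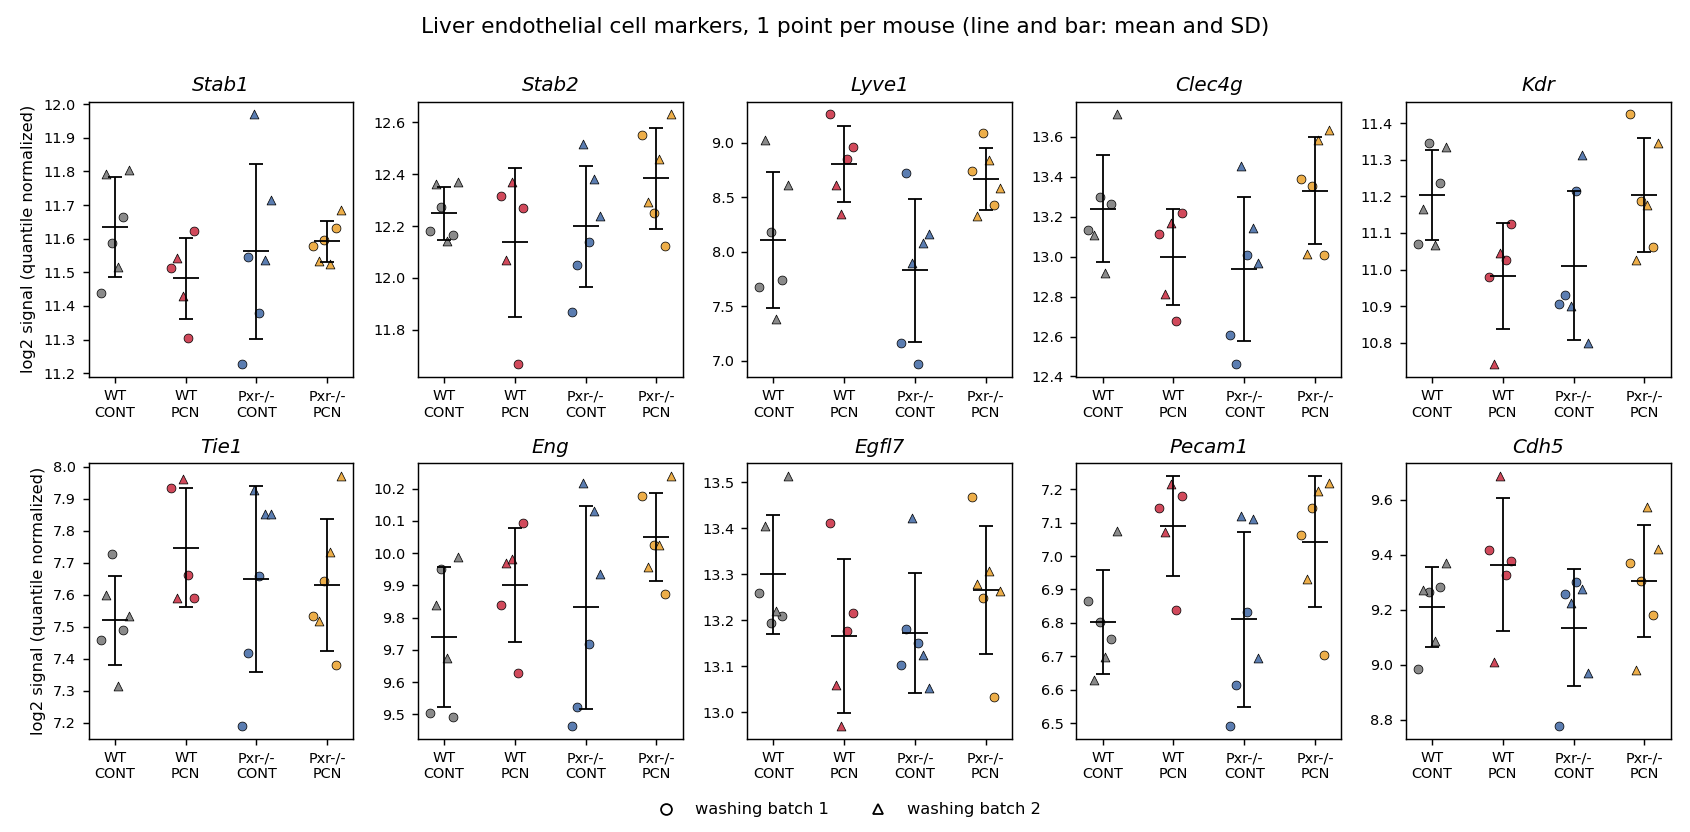
Quantile normalized log2 signal (y axis) of the 10 endothelial markers in the 4 groups (x axis), 1 point per mouse, circles for washing batch 1 and triangles for washing batch 2, with the group mean and SD as line and bar. Groups overlap in every panel, and the points of *Lyve1* spread furthest.

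The sinusoidal receptors were read first. *Lyve1*, a hyaluronan receptor of sinusoidal and lymphatic endothelium that some tissue macrophages also carry, had the largest change of the 10 markers in both genotypes. WT CONT mice ran from 7.38 through a median of 7.97 to 9.03, and the WT PCN mice were at 8.35, 8.62, 8.85, 8.97 and 9.26. Pxr-/- CONT mice ran from 6.97 through 7.99 to 8.72, and Pxr-/- PCN mice from 8.33 through 8.66 to 9.09. The lowest mice of all belonged to the control groups, while the highest control mice reached into the range of the PCN mice.

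The change of *Lyve1* was 0.71 ± 0.29 (SE) in WT mice (limma adjusted p = 0.0828) and 0.84 ± 0.28 in Pxr-/- mice (limma adjusted p = 0.0733). The difference between these responses was -0.13, with a 95% interval from -0.96 to 0.71. Averaged over the genotypes, a contrast added after the values were seen, the change was 0.77 ± 0.20, or 1.71-fold, and was called (limma adjusted p = 0.00637). *Lyve1* was the only marker called in that contrast, where 3.92% of all genes were called, and 3 markers (*Lyve1*, *Pecam1* and *Eng*) were at an unadjusted p of at most 0.05, beside 39.7% of all genes.

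That call rested on the first washing batch. The averaged change of *Lyve1* was 1.15 there (limma adjusted p = 0.0163) and 0.34 in the second (limma adjusted p = 0.433). In WT mice the batches gave 1.16 and 0.14, and in Pxr-/- mice 1.14 and 0.54. The mice of *Lyve1* also scattered most: its residual SD, after group and batch, was 0.52, larger than that of 97.5% of all genes, whose median was 0.17. Without WT CONT replicate 2, the highest WT control mouse at 9.03, the change in WT mice was 0.89 and was called (limma adjusted p = 0.0273), and that in Pxr-/- mice, 0.84, was called too (adjusted p = 0.0499). Without Pxr-/- CONT replicate 2, at 8.72, the change in Pxr-/- mice was 1.03 (limma adjusted p = 0.0239). All 8 markers of Kupffer cells, the macrophages of the sinusoids, had a positive value in the averaged contrast, with a median of 0.22. Of these, 0 were called by limma and 2 were at an unadjusted p of at most 0.05, beside 3.92% and 39.7% of all genes. All 8 were also positive in Pxr-/- mice, with a median of 0.23 and 0 at that p, beside 22.9% of all genes. In WT mice 6 were positive and 2 negative, with a median of 0.11 and 0 at that p, beside 35.9%. The part of Kupffer cells in the *Lyve1* values was not tested.

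*Clec4g* encodes LSECtin, a lectin of liver and lymph node sinusoids. Its log2 signal ran from 12.92 through 13.20 to 13.71 in WT CONT mice, and the WT PCN mice were at 12.68, 12.81, 13.12, 13.17 and 13.22. It ran from 12.46 through 12.99 to 13.45 in Pxr-/- CONT mice and from 13.01 through 13.37 to 13.63 in Pxr-/- PCN mice. The PCN mice lay toward the lower end of their controls in WT and toward the upper end in Pxr-/- mice, with overlap in both. The change was -0.22 ± 0.16 in WT mice (limma adjusted p = 0.344) and 0.39 ± 0.15 in Pxr-/- mice (limma adjusted p = 0.131). The responses differed by -0.61, with an interval from -1.07 to -0.16, which was not called (limma adjusted p = 0.187). A second *Clec4g* probe, designed on ENSMUST00000160527, was far dimmer, with raw median signals of 44 to 177 against 4922 to 14694 for the brightest. It gave 0.28 for the same difference (limma adjusted p = 0.692). On this probe WT PCN replicate 1 was at 7.32 and the other 4 WT PCN mice at 5.75 to 5.79, and without that array the difference was -0.02 ± 0.11 (limma adjusted p = 0.948).

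*Stab1* and *Stab2* encode the stabilins, scavenger receptors that clear hyaluronan and other matrix fragments in the sinusoids. *Stab1* ran from 11.44 through 11.63 to 11.80 in WT CONT mice, the WT PCN mice were at 11.30, 11.43, 11.51, 11.54 and 11.62, and Pxr-/- PCN mice lay within 11.53 to 11.69, inside the Pxr-/- CONT range of 11.23 to 11.97. Its changes were -0.14 ± 0.09 in WT (limma adjusted p = 0.317) and 0.03 ± 0.09 in Pxr-/- mice (limma adjusted p = 0.895). The brightest *Stab2* probe ran from 12.14 through 12.23 to 12.37 in WT CONT mice, and the WT PCN mice were at 11.67, 12.07, 12.27, 12.32 and 12.37. It ran from 11.87 through 12.19 to 12.52 in Pxr-/- CONT and from 12.12 through 12.38 to 12.63 in Pxr-/- PCN mice. On these probes, groups of both stabilins overlapped. The *Stab2* changes were -0.09 ± 0.11 in WT (limma adjusted p = 0.603) and 0.19 ± 0.11 in Pxr-/- mice (limma adjusted p = 0.326).

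The 5 *Stab2* probes did not give the same value in WT mice. Both probes of NM_138673 gave changes of -0.09 and -0.04, while the probes of the other transcripts gave -0.24 (ENSMUST00000160580, limma adjusted p = 0.0582), -0.27 (AB105397, limma adjusted p = 0.0479) and -0.44 (ENSMUST00000099390, limma adjusted p = 0.00269). None of these was called, because each change was under 1.5-fold. For ENSMUST00000099390, WT CONT mice ran from 8.57 through 8.84 to 9.10, and the WT PCN mice were at 8.35, 8.37, 8.39, 8.41 and 8.49. All 5 WT PCN mice lay below all 6 WT CONT mice on this probe, which was picked out after its values were seen. Read from their brightest probes, 12.4% of all genes did not overlap between these groups either. In Pxr-/- mice the change of the ENSMUST00000099390 probe was -0.17 (limma adjusted p = 0.303). The groups overlapped there, at 8.56 to 8.95 in CONT and 8.30 to 8.92 in PCN mice.

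The difference among the probes was then taken per mouse, as the mean of the 3 other probes minus the mean of both NM_138673 probes. PCN moved this difference by -0.24 in WT mice (two-sided exact permutation p = 0.0758) and by -0.29 in Pxr-/- mice (exact p = 0.0909), and each was 0.182 after adjustment over 4 comparisons. The smallest p this design allows is 0.00216. The comparison was chosen after the values were seen, and it does not pass the threshold in either genotype.

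**Figure D2:**
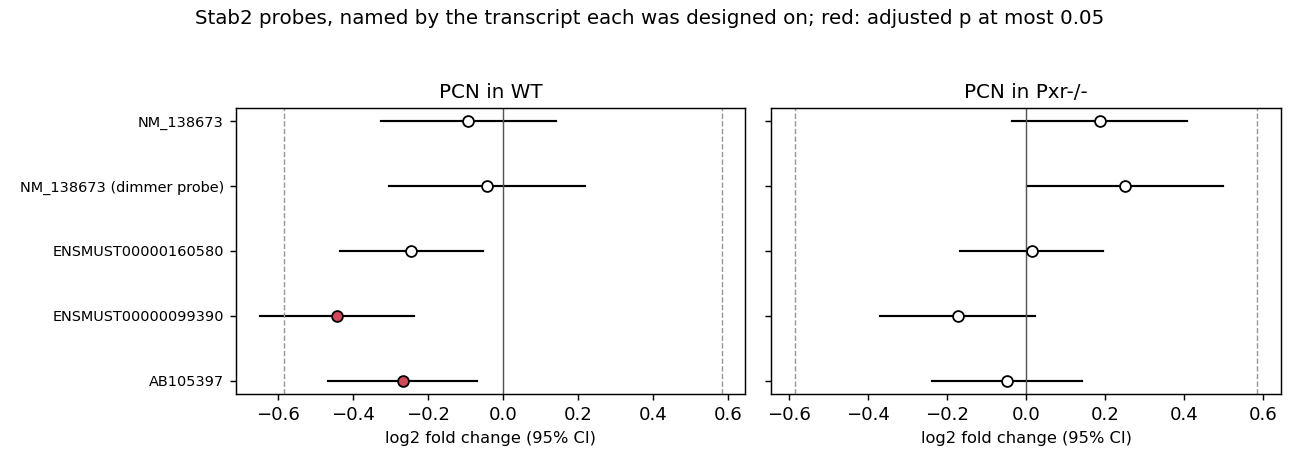
Log2 fold change after PCN (x axis, with 95% confidence interval) of the 5 *Stab2* probes (y axis, named by transcript) in WT (left) and Pxr-/- mice (right); red points have an adjusted p of at most 0.05, and dashed lines mark 1.5-fold. The probes of NM_138673 lie nearest 0 in WT mice, and every point lies inside the dashed lines.

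Receptors of vascular growth factors followed. *Kdr* encodes VEGFR2, the main receptor through which VEGF acts on endothelium. WT CONT mice ran from 11.07 through 11.20 to 11.35, and the WT PCN mice were at 10.74, 10.98, 11.03, 11.04 and 11.13. Pxr-/- CONT mice ran from 10.80 through 10.92 to 11.31, and Pxr-/- PCN mice from 11.03 through 11.18 to 11.43. In WT mice 4 of the 5 PCN mice lay below every control mouse, and in Pxr-/- mice the PCN mice lay above 4 of the 6 control mice.

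The change of *Kdr* was -0.23 ± 0.10 in WT (limma adjusted p = 0.103) and 0.19 ± 0.09 in Pxr-/- mice (limma adjusted p = 0.235). The difference between these responses, -0.42 with an interval from -0.70 to -0.14, had the smallest adjusted p of the markers in that contrast and was not called (limma adjusted p = 0.137). The washing batches gave -0.38 and -0.48 for it. Across the markers, the difference between the responses held 0 called, beside 1.05% of all genes, and 2 at an unadjusted p of at most 0.05 in the limma fit, *Kdr* and *Clec4g*, beside 15.1%. Its median over the 10 markers was -0.15, against -0.01 over all genes.

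The other *Kdr* probes measured little. The probe on EU884114, which the array files annotate as the mRNA of a soluble form of the receptor, was not well above background on any of the 23 arrays, with a raw median signal of 23 to 32. The probe on ENSMUST00000149573 was well above background on 2 of the 23 arrays. No change is given for either.

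*Tie1*, an endothelial receptor tyrosine kinase that works with the angiopoietin receptor TEK, ran from 7.31 through 7.51 to 7.73 in WT CONT mice, and the WT PCN mice were at 7.59, 7.59, 7.66, 7.93 and 7.96. In Pxr-/- mice the CONT range of 7.19 to 7.93 covered most of the PCN range of 7.38 to 7.97. Its changes were 0.24 ± 0.12 in WT (limma adjusted p = 0.142) and -0.02 ± 0.11 in Pxr-/- mice (limma adjusted p = 0.947). *Eng*, endoglin, a co-receptor for BMP9 and TGFβ, lay within 9.49 to 9.99 in WT CONT, 9.63 to 10.09 in WT PCN, 9.46 to 10.22 in Pxr-/- CONT and 9.87 to 10.24 in Pxr-/- PCN mice. These ranges overlapped, with changes of 0.18 ± 0.11 in WT (limma adjusted p = 0.261) and 0.22 ± 0.11 in Pxr-/- mice (limma adjusted p = 0.244). A second *Eng* probe, far dimmer at raw median signals of 48 to 77 against 597 to 1260, gave 0.04 and 0.02.

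Secreted and junction proteins completed the markers. *Egfl7*, a matrix protein secreted by endothelium, stayed within 12.97 to 13.51 over all 23 mice, with changes of -0.13 ± 0.09 in WT (limma adjusted p = 0.315) and 0.09 ± 0.09 in Pxr-/- mice (limma adjusted p = 0.572). *Cdh5*, VE-cadherin, the adhesion protein of endothelial junctions, gave 0.16 ± 0.12 in WT (limma adjusted p = 0.378) and 0.17 ± 0.11 in Pxr-/- mice (limma adjusted p = 0.422), with WT mice at 8.98 to 9.37 in CONT and 9.01 to 9.69 in PCN. Neither gene separated its groups. *Pecam1*, CD31, the classic adhesion molecule of endothelium, ran from 6.63 through 6.78 to 7.07 in WT CONT mice, and the WT PCN mice were at 6.84, 7.07, 7.14, 7.18 and 7.22. It ran from 6.49 through 6.76 to 7.12 in Pxr-/- CONT mice and from 6.71 through 7.10 to 7.22 in Pxr-/- PCN mice.

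Of the WT PCN mice, 3 lay above every WT CONT mouse for *Pecam1*. The change was 0.30 ± 0.11 in WT mice, where the adjusted p of 0.0535 (limma) was the smallest of the 10 markers, and 0.23 ± 0.11 in Pxr-/- mice (limma adjusted p = 0.198). Averaged over the genotypes it was 0.27 ± 0.08 (limma adjusted p = 0.0121), under 1.5-fold and so not called.

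**Figure D3:**
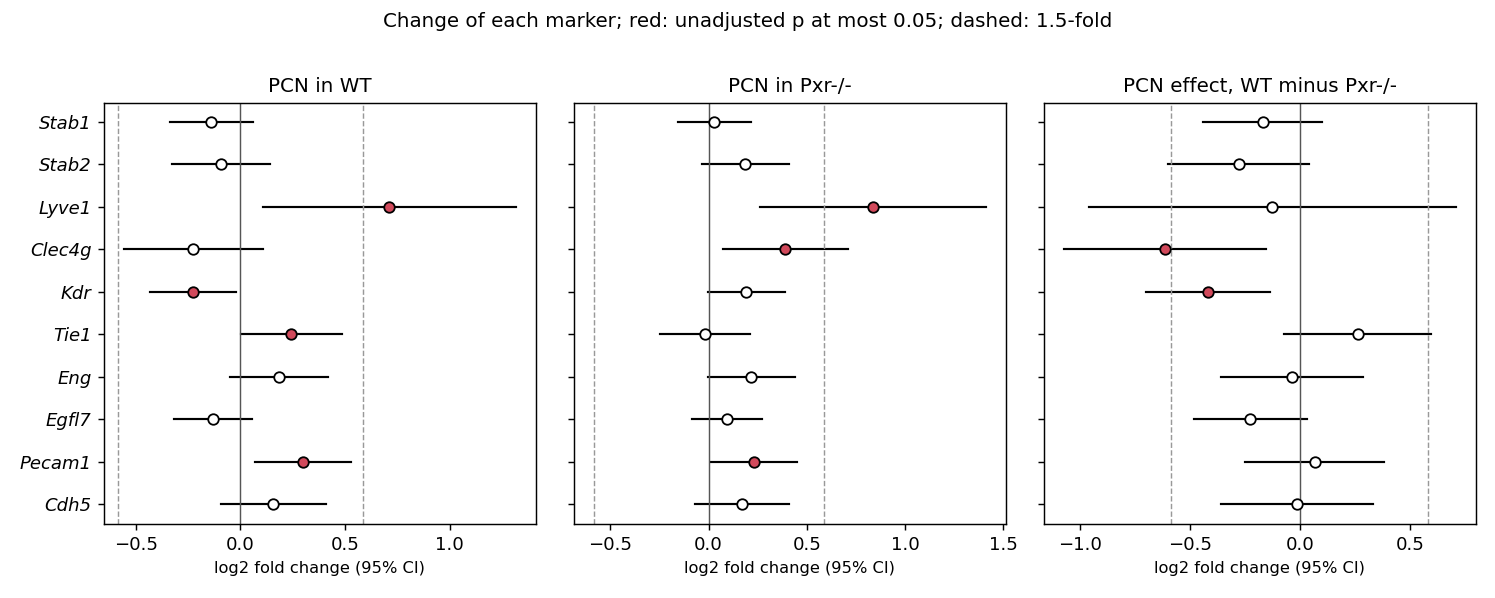
Log2 fold change (x axis, with 95% confidence interval) of the 10 markers (y axis) after PCN in WT mice, after PCN in Pxr-/- mice, and the difference between these effects; red points have an unadjusted p of at most 0.05, and dashed lines mark 1.5-fold. The *Lyve1* points alone lie beyond 1.5-fold after PCN, with intervals that cross the line, and *Clec4g* lies just beyond it for the difference.

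Genotype was compared with and without PCN. Between the control groups, 0 markers were called in the limma fit and 0 were at an unadjusted p of at most 0.05, beside 0.309% and 12.2% of all genes. The changes (Pxr-/- minus WT) ran from -0.30 for *Clec4g* to 0.13 for *Tie1*, with a median of -0.07. No marker separated these groups without overlap, against 0.836% of all genes. Between the PCN groups 0 were called by limma and 1, *Kdr* (0.23 ± 0.10, limma adjusted p = 0.164), was at an unadjusted p of at most 0.05, beside 2.09% and 25.5% of all genes. No marker separated the PCN groups, while 6.88% of all genes did. The median over the markers there was 0.10 and turned to -0.16 in the authors' normalized values, in which the median of all probes was -0.18.

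The mice differed among themselves in these genes together. After group and washing batch were removed, the 45 pairs of markers correlated over the 23 mice with a median Pearson r of 0.50, and all 45 were above 0. The highest was 0.87, between *Clec4g* and *Pecam1*, and the lowest was 0.04, between *Kdr* and *Stab1*. *Lyve1* followed the others least, with a median r of 0.27, while *Clec4g* had the highest median, 0.61. These points share arrays and their normalization, and r is given as a description.

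The genes most like the mean of the 10 markers were sought among 15048 other genes with a RefSeq name. Over the 23 mice these were *Arhgap31* (r = 0.89), *Cyyr1* (0.88), *Mmrn2* (0.88), *Ramp2* (0.86), *Tmem204* (0.85) and *She* (0.85). With group and washing batch removed they were *Rasgrp3* (r = 0.93), *Arhgap31* (0.92), *Oit3* (0.91), *She* (0.90), *Mylip* (0.90) and *Trib2* (0.90). *Mmrn2* encodes an endothelial matrix protein and *Ramp2* a partner of the adrenomedullin receptor, and *Mmrn2* and *Oit3* were also on the lists of endothelial genes below.

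**Figure D4:**
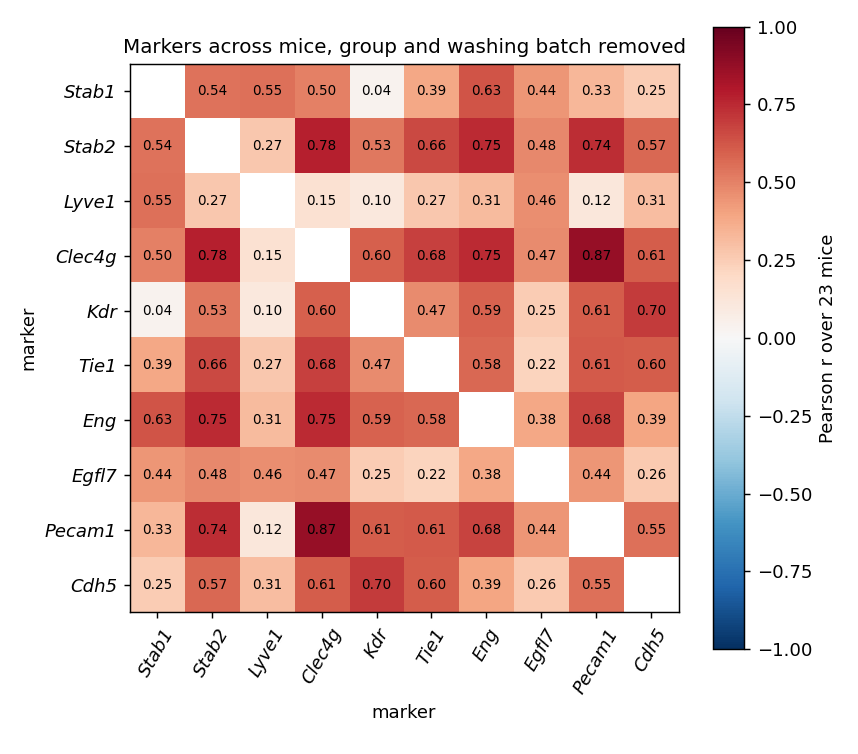
Pearson r over the 23 mice between each pair of the 10 markers (both axes), after group means and washing batch were removed; colour runs from -1 (blue) to 1 (red). All 45 pairs are above 0, from 0.04 to 0.87, and the row of *Lyve1* is the palest.

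Other endothelial genes were taken from 8 lists with 73 genes, of which 68 passed the filter (*Pgf*, *Bmp10*, *Jag2*, *Hey2* and *Sele* did not). In WT mice 4 were called higher after PCN and 1 lower, where 3.79% of all genes were called higher and 2.39% lower. In Pxr-/- mice 3 were called higher and 0 lower, where the shares were 1.42% and 0.86%. Their median changes were 0.00 and 0.11. The largest list, 23 general endothelial markers, had a median of 0.19 in WT mice, with 16 positive and 7 negative changes. In Pxr-/- mice its median was 0.24, with 18 positive and 5 negative. Of these 23, 3 were called in WT mice and 2 in Pxr-/- mice, beside 6.18% and 2.28% of all genes. At an unadjusted p of at most 0.05 the limma fit held 12 and 13, beside 35.9% and 22.9%.

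The called genes were mostly general endothelial markers and an adhesion molecule, and none was on the list of sinusoidal scavenging genes. *Thbd*, thrombomodulin, the endothelial anticoagulant receptor, rose by 1.33 ± 0.28 in WT (limma adjusted p = 0.0015) and by 1.22 ± 0.26 in Pxr-/- mice (limma adjusted p = 0.00853). *Cd34*, a sialomucin of vessels with continuous endothelium and of blood progenitors, rose by 0.93 ± 0.21 in WT (limma adjusted p = 0.00235) and by 0.75 ± 0.20 in Pxr-/- mice (limma adjusted p = 0.024). *Icam1*, an adhesion molecule induced in inflamed endothelium and made by several liver cell types, rose by 0.96 ± 0.14 in WT (limma adjusted p = 6.98e-05) and by 0.65 ± 0.14 in Pxr-/- mice (limma adjusted p = 0.00695). The difference between the responses was called for none of the 3, at 0.12, 0.18 and 0.31 (limma adjusted p = 0.93, 0.832 and 0.499).

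*Klf4*, a transcription factor of endothelium under flow, rose in WT mice by 0.73 ± 0.21 (limma adjusted p = 0.0132), and its value in Pxr-/- mice was 0.65 (adjusted p = 0.0513). *Smad7*, an inhibitor of TGFβ and BMP signalling that is induced by it, fell by 1.05 in WT mice (limma adjusted p = 0.000819), with -0.61 in Pxr-/- mice (adjusted p = 0.0589). Averaged over the genotypes, *Thbd*, *Cd34*, *Icam1* and *Klf4* were called higher, where 2.6% of all genes were, and *Smad7* lower, where 1.33% were. Without one of Pxr-/- CONT replicates 1, 3 and 6 or Pxr-/- PCN replicates 1 and 4, *Cd34* was not called in Pxr-/- mice, and *Icam1* was not without Pxr-/- CONT replicate 5. In Pxr-/- mice *Thbd*, *Cd34* and *Icam1* each lost the call when either washing batch was fitted alone, with adjusted p up to 0.158, 0.185 and 0.181 (limma). Over all alternatives the change of *Cd34* there was 0.60 to 0.90 and that of *Icam1* 0.48 to 0.81.

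Of 9 sinusoidal scavenging genes, 0 were called after PCN by limma in either genotype, and 3 were at an unadjusted p of at most 0.05 in each. Over all genes the shares were 6.18% called and 35.9% at that p in WT, and 2.28% and 22.9% in Pxr-/- mice. The median of the 9 was -0.16 in WT and 0.15 in Pxr-/- mice. The difference between the responses was negative for all 9, with a median of -0.33, 0 called by limma and 5 at an unadjusted p of at most 0.05, where over all genes the median was -0.01, with 1.05% called and 15.1% at that p. In the same contrast all 5 hepatocyte markers were negative too, with a median of -0.35 and 2 at an unadjusted p of at most 0.05, and their part in the sinusoidal values was not tested. *Ehd3*, a membrane trafficking protein, was the 1 gene of the 8 lists called between Pxr-/- PCN and WT PCN mice, higher by 0.59 ± 0.11 (limma adjusted p = 0.00251). Its change after PCN was -0.52 in WT (limma adjusted p = 0.00193, under 1.5-fold) and 0.07 in Pxr-/- mice, and the difference of -0.59 was not called (limma adjusted p = 0.0592). Its call between the PCN groups was lost under 11 of 35 alternatives, with a change of 0.34 to 0.74, and among these were the fits without WT PCN replicate 2 or 3 or Pxr-/- PCN replicate 3 or 6.

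Signalling lists held few calls. Of the VEGF ligands and receptors, angiopoietins and TEK, Notch genes and angiocrine factors, 8, 3, 7 and 6 passed the filter and 0 were called by limma in any comparison, with 4, 0, 2 and 2 at an unadjusted p of at most 0.05 after PCN in WT mice, where 6.18% of all genes were called and 35.9% were at that p. The brightest of each, by the rule for lists without a call, were *Nrp2* (-0.21 in WT and -0.03 in Pxr-/- mice), a co-receptor of VEGF, *Angpt2* (-0.12 and -0.02), the antagonist angiopoietin, *Notch1* (0.05 and 0.06) and *Bmp2* (-0.40 and 0.22), an angiocrine signal for hepcidin. *Bmp2* had an adjusted p of 0.0421 in WT mice (limma) with a change under 1.5-fold. Of the 9 genes of BMP9, BMP10 and ALK1 signalling, *Smad7* was the only one called.

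**Figure D5:**
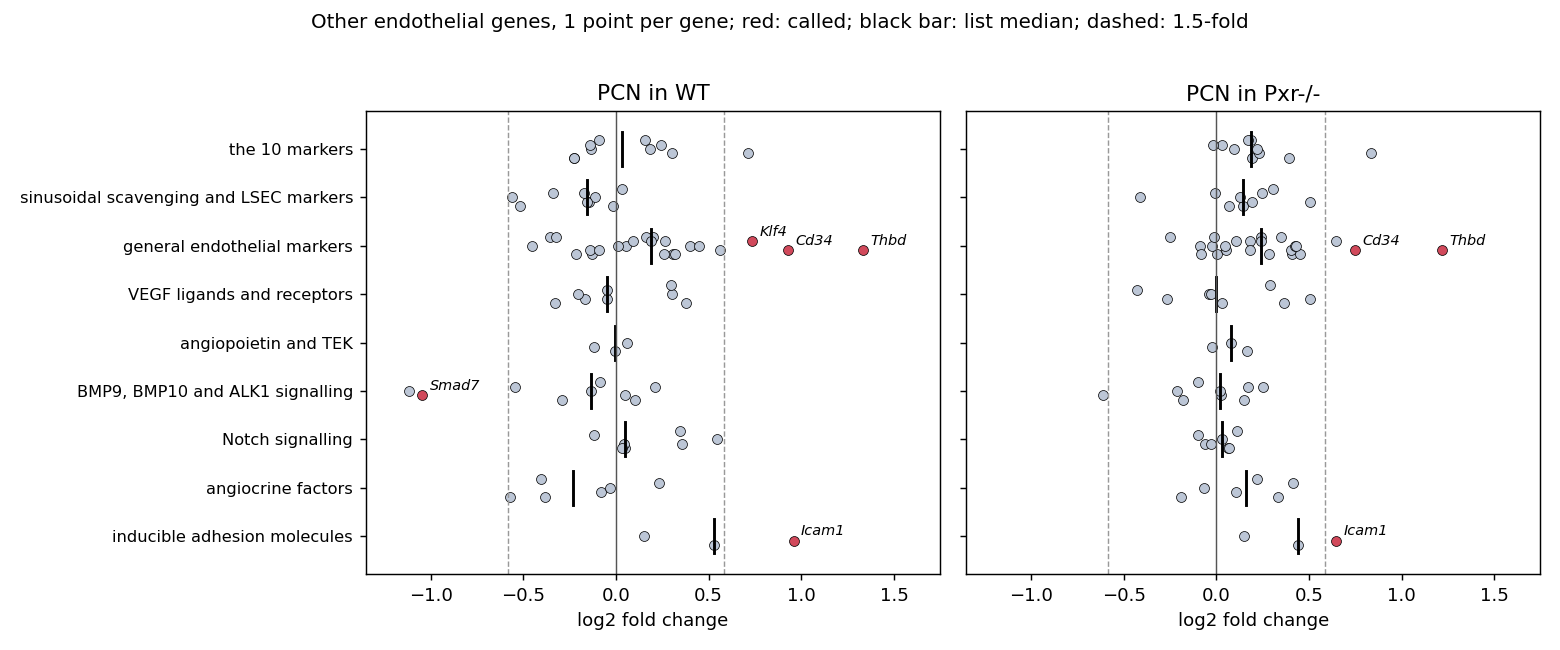
Log2 fold change after PCN (x axis) of each gene of the 10 markers and 8 other endothelial lists (y axis) in WT (left) and Pxr-/- mice (right), with called genes in red and named, the list median as a black bar and 1.5-fold as dashed lines. Called genes are *Thbd*, *Cd34* and *Icam1* in both genotypes and *Klf4* and *Smad7* in WT mice.

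Markers of other cell types were read beside these values. Their lists were summed per mouse as the mean log2 signal centred over the 23 mice. Cholangiocyte markers (5 of 6 genes passed the filter) lay at -0.62 to 0.60 in WT CONT, 0.21 to 0.86 in WT PCN, -0.83 to -0.08 in Pxr-/- CONT and -0.28 to 0.71 in Pxr-/- PCN mice. *Sox9* was called higher in WT mice after PCN (0.76, limma adjusted p = 0.0109), where 3.79% of all genes were. It was called lower in Pxr-/- PCN than in WT PCN mice (-0.76, limma adjusted p = 0.0279), where 2.09% of all genes were called. In the averaged contrast 3 of the 5 were called higher, beside 2.6% of all genes. These were *Krt7* (0.70, limma adjusted p = 0.0168), *Spp1* (0.71, limma adjusted p = 0.0231) and *Sox9*. The WT call of *Sox9* was lost in washing batch 2 alone and with slide as a fixed block, and over all alternatives its change was 0.26 to 1.21. Platelet markers (4 of 4) lay at -0.34 to 0.11 in WT CONT and 0.23 to 0.57 in WT PCN mice, which did not overlap, and at -0.42 to -0.01 in Pxr-/- CONT and -0.17 to 0.22 in Pxr-/- PCN mice, which did. Of all single genes, 12.4% did not overlap between those WT groups, and no such share was computed for sums of several genes. *Pf4*, a platelet chemokine, rose in WT mice by 1.09 (limma adjusted p = 0.00338), a call lost when either washing batch was fitted alone, with changes of 0.84 to 1.25 over all alternatives. Its value was also lower in Pxr-/- PCN than in WT PCN mice (-0.85, limma adjusted p = 0.0415), a call lost under 11 of 35 alternatives. In the averaged contrast *Pf4* was the 1 platelet marker called, and it was higher.

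Kupffer cell markers (8 of 8) were called in no comparison by limma, with 0 at an unadjusted p of at most 0.05 after PCN in either genotype. Over all genes 6.18% were called and 35.9% were at that p in WT mice, and 2.28% and 22.9% in Pxr-/- mice. The Kupffer sum lay at -0.53 to 0.42 in WT CONT, -0.58 to 0.94 in WT PCN, -0.67 to 0.37 in Pxr-/- CONT and -0.56 to 0.49 in Pxr-/- PCN mice. The 10 endothelial markers, summed the same way, lay at -0.23 to 0.20, -0.12 to 0.16, -0.45 to 0.13 and -0.09 to 0.27 in those groups. Stellate cell (8 of 8), lymphocyte (5 of 7) and red cell markers (3 genes) held 0 called genes in any comparison by limma. After PCN in WT mice 3, 1 and 1 were at an unadjusted p of at most 0.05, where 6.18% of all genes were called and 35.9% were at that p. The sum of 5 hepatocyte markers lay at -0.26 to 0.25 in WT CONT, -0.25 to -0.13 in WT PCN, -0.16 to 0.18 in Pxr-/- CONT and 0.08 to 0.36 in Pxr-/- PCN mice. The PCN groups thus did not overlap in this sum, where 6.88% of all single genes did not. Between the PCN groups the median of the 5 hepatocyte markers was 0.32, with 4 of 5 at an unadjusted p of at most 0.05, beside 25.5% of all genes. *Apoa1* rose by 0.62 in Pxr-/- mice after PCN (limma adjusted p = 0.000955), and *Tat* was higher by 0.73 in Pxr-/- PCN than in WT PCN mice (adjusted p = 0.0436). No marker that passed the filter was at 0, but *Cftr*, *Cd8a* and *Cd79a* did not pass the filter. The part of other cell types in the endothelial values was not tested.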

How the data were processed

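Liver RNA of 23 mice was measured on 1-colour Agilent arrays (design of 62976 spots). Per the file headers, Feature Extraction 10.10.1.1 gave each spot a linear intensity. The authors also deposited log2 values of 32574 probes, which according to the methods were filtered, corrected for washing batch and normalized with CrossNorm (column medians 7.54 to 8.01). Details of that filter were not given in the sources used here.

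Here, outlier spots were set to missing, log2 median signals were averaged per probe, probes were kept if flagged well above background in over 50% of the mice in any group (32087 of 56605, 21056 genes) and signals were quantile normalized. All arrays entered 1 limma fit (limma 3.58.1, R 4.3.3) with 4 groups and washing batch, leaving 18 residual degrees of freedom, and p-values were adjusted by the Benjamini-Hochberg procedure over all probes. Shares of all genes count each gene by its brightest probe. The script was tested on simulated data. Groups, replicate numbers and washing batches came from the labels. Each array is a mouse, and their number limits the precision, since arrays give no counts of molecules.

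The 10 markers, the gene lists and the tests were chosen with earlier results of these data known. Named by rule were the 10 markers, every called gene of the other endothelial lists, the brightest gene of each list without a call, the 6 genes most like the markers, and *Cyp3a11* and *Nr1i2*. Called genes of the marker lists of other cell types are named beside these. Alternatives changed the background correction, scaling, filter, batch, slide and replicate terms, groups fitted, probe and arrays. Probe positions and sequences are those of the array files (mm9). RefSeq served for gene names.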

Additional observations from a re-analysis of the deposited data

Results flagged for a closer look

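In Pxr-/- CONT mice, replicate 3 stood apart from the other 5 for *Egfl7*, at 13.42 against 13.18 for the next mouse, a gap of 0.65 of the group's range. This was 1 of 40 groups examined (10 genes in 4 groups), and chance flags about 1 in 20 such groups.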

How the results depend on the processing

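Each result was recomputed under 36 alternatives, 23 of which left out 1 array. No marker was called in the difference between responses or in either genotype comparison under any of them. *Lyve1* was called in WT mice in the authors' log2 values (1 marker called, change 0.86, adjusted p = 0.0415). Leaving out 1 array gave 0 to 1 called markers after PCN in WT and in Pxr-/- mice. In the averaged contrast, added after the data were seen, 1 marker was called in every such fit, and 0 in washing batch 2 alone. The median over the markers moved by more than the spread between mice (0.16) once, between the PCN groups, to -0.16 in the authors' values, where all probes shifted by -0.18 (0.11 for PCN in WT mice); *Kdr* turned to -0.025 there. Leaving out 1 array gave medians of -0.02 to 0.09 (PCN in WT), 0.15 to 0.23 (PCN in Pxr-/-), -0.22 to -0.06 (difference) and 0.05 to 0.13 (PCN groups). With a far dimmer probe, the *Clec4g* difference turned to 0.28, and to -0.02 on that probe without WT PCN replicate 1 (added after the data were seen). With other probes, the averaged *Stab2* change turned to -0.31 and -0.16. The cause was not tested. The slide correlated arrays by 0.01 as a random block. In WT mice 4 of the 5 called endothelial genes kept their call in each leave-1-out fit and in washing batch 1, *Klf4* only in the former, and it was also lost with slide as a fixed block (adjusted p up to 0.239). In washing batch 2 alone, with 2 WT PCN arrays, none of the 5 was called. In Pxr-/- mice *Thbd*, *Cd34* and *Icam1* were called in neither washing batch alone. The WT call of *Pf4* was lost in each batch alone, and that of *Sox9* in batch 2 and with slide as a fixed block. Among markers of other cell types, calls between the PCN groups were lost under 9 (*Sox9*), 11 (*Pf4*) and 19 (*Tat*) of 35 alternatives, single arrays included. The call of *Apoa1* after PCN in Pxr-/- mice was lost under 4 of 35, the fit without Pxr-/- PCN replicate 2 among them. In the averaged contrast the call of *Krt7* was lost in washing batch 1 alone, under an alternative background correction and without WT PCN replicate 3. Its change there was 0.32 to 1.21 over all alternatives. The averaged call of *Spp1* was lost in each washing batch alone and without WT PCN replicate 2, with changes of 0.47 to 1.01. Those of *Sox9* and *Pf4* were lost in washing batch 2 alone, and that of *Sox9* also under the alternative background correction.

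Replicate numbers were not taken as pairs in the main fit. The deviations of 22 same-numbered pairs correlated at -0.09 to 0.49, with 9 over 0.1. Mice with different numbers were not compared in this way, so these values cannot decide whether the numbers pair the mice. With the replicate block, 0 markers were called in each of the 5 comparisons, the medians were 0.04 (WT) and 0.19 (Pxr-/-), and 1 was called in the averaged contrast.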
